A study of Mus musculus with 15 samples.

Results

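The expression of 10 genes of the p53 pathway was followed in mouse dental mesenchymal cells (mDMCs) during the first 48 h of culture. The genes were taken as the rows of the deposited expression table whose Ensembl transcript belongs to Trp53, Mdm2, Ccng1, Pmaip1, Bbc3, Fas, Gdf15, Eda2r, Trp53inp1 or Ak1. All 10 had 1 row each among the 12089 transcripts of the table. They were chosen by their score changes between freshly isolated and cultured mDMCs. Their changes from 0 h are therefore described below without a test. These 10 genes are tested only between culture times, and the cultured libraries also took part in that choice. Genes of other lists are also tested from 0 h, although those lists were chosen with earlier results of these data known.

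The mDMCs came from the mesenchyme of mandibular first molar germs of ICR mouse embryos at embryonic day 14.5, taken as single cells after dispase and trypsin treatment. Freshly isolated mDMCs (0 h, 3 libraries) were compared with mDMCs grown in FBS-supplemented DMEM for 12 h (2 libraries), 24 h, 36 h and 48 h (3 libraries each), and 1 library came from dental mesenchymal tissue that had not been cultured. The labels name no genetic change and no drug in any group. The labels do not say whether the libraries of a time point came from separate cultures or embryos, so p-values measure only the spread between these libraries, which may be technical.

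The transcription factor p53, encoded by Trp53, is held at a low level because Mdm2, an E3 ubiquitin ligase and itself a p53 target, marks it for degradation. DNA damage and other stresses free p53 from Mdm2 mostly by changing the protein, so the Trp53 mRNA alone does not show p53 activity. Its targets include genes that stop the cell cycle, genes of the mitochondrial and death receptor routes to apoptosis, and genes for secreted and metabolic stress proteins.

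The stretches of promoter below are shown because they hold a match to the p53 half-site consensus, the unit that p53 binds in pairs. RefSeq promoter sequences of GRCm38.p6 covering 250 bases upstream of a start site were searched on both strands, with 14 such windows for 8 of the 10 genes. A match, given in capitals, was present in 3 of the 14 windows, and in 7.13% of all 32851 windows of the same length.
Mdm2, chr10:117710915-117710964, minus strand: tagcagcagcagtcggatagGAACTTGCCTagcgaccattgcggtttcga
Trp53, chr11:69580264-69580313, plus strand: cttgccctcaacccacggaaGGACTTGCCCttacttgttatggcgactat
Ccng1, chr11:40755442-40755501, minus strand: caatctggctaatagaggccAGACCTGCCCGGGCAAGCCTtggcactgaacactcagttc
The capitals begin 186 bases upstream of the start site in Mdm2, 75 bases upstream in Trp53 and 195 bases upstream in Ccng1. In Ccng1 they mark 2 abutting half-sites of 10 bases with 1 departure from the consensus over the 20 bases, a pattern held by 25 of the 32851 windows, or 0.0761%. These are matches of letters only, and binding was not measured.

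The values below are the deposited scores, normalized whole numbers that are not read counts. Every library had the same median score of 721 and the same largest score of 127101, so a score reports the rank of a transcript within its library, and the sequencing depth is unknown. Fewer cells of a type and less RNA per cell cannot be told apart in such bulk samples. The summed score of 9 dental mesenchyme markers was 80059 to 97037 at 0 h and 44127 to 89447 in culture, with Prrx1 the largest part of it (28843 to 70675 in culture). Of the 9, 7 were lower in every cultured library than in every fresh one, all but Prrx1 and Runx2, for example Pdgfra at 16448 in each fresh library and 2485 to 5100 in culture and Pax9 at 3850 to 5959 and then 619 to 2177. Red cell and endothelial markers were lower in every cultured library than in every fresh one, with sums of 53752 to 96907 at 0 h and 25 to 514 in culture for 5 red cell markers, and of 7473 to 8758 and 394 to 851 for 6 endothelial markers. Epithelial and macrophage sums overlapped. The sum of 6 epithelial markers was 15873 in 0 h replicate 1, 2070 and 1880 in the other fresh libraries and 81 to 2752 in culture. The sum of 5 macrophage markers was 908 to 1270 at 0 h and 452 to 1212 in culture, where Csf1r, C1qa and Ptprc were lower in every library and Lyz2 was 114 to 514, beside 113 to 192 in fresh mDMCs. The part of these cells in the changes from 0 h was not tested.

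The libraries of 36 h replicates 1 and 2 stood closer together than any other replicates, with a median absolute log2 difference of 0.058 against 0.111 to 0.256 for the other 12 replicate pairs. The same score stood in both for 4.86% of transcripts, beside 1.45% to 2.64% for the other pairs, so the columns are not copies. Whether these 2 libraries stem from 1 is not known. They were kept as 2 libraries, and results at 36 h are also given with them averaged as 1 library.

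Trp53 itself changed little. Its score was 945, 724 and 1075 in fresh mDMCs, 1544 and 1015 after 12 h, 1099, 1173 and 1369 after 24 h, 1229, 1223 and 962 after 36 h, and 1212, 1241 and 1209 after 48 h, with 730 in the tissue. The 24 h and 48 h libraries all lay above the 0 h libraries, whereas those of 12 h and 36 h overlapped them. The mean was 914.7 ± 177.5 in fresh mDMCs and 1221 ± 17.7 after 48 h (SD, n = 3 each), a difference of 0.43 ± 0.17 (SE) on the log2(score + 1) scale. Between successive culture times the Trp53 level differed by -0.05, -0.10 and 0.11 on the log2 scale, and none of these steps passed the test (limma, adjusted p = 0.894, 0.731 and 0.845).

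Mdm2, by contrast, rose steeply after a delay. Its score was 940, 1360 and 1505 in fresh mDMCs, 1306 and 1403 after 12 h, 4240, 4209 and 3947 after 24 h, 10404, 10404 and 9163 after 36 h, and 13266, 11567 and 15054 after 48 h. The tissue had 1436, inside the range of the 0 h libraries. Fresh and 12 h cells overlapped, and from 24 h each time point lay entirely above the one before. The mean log2 level differed from that at 0 h by 0.12 ± 0.17 at 12 h and by 3.41 at 48 h. Mdm2 rose by 1.61 ± 0.17 (SE, adjusted p = 0.000137) from 12 h to 24 h, and in the next 12 h by a further 1.27 ± 0.15 (limma, adjusted p = 0.000414).

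**Figure D1:**
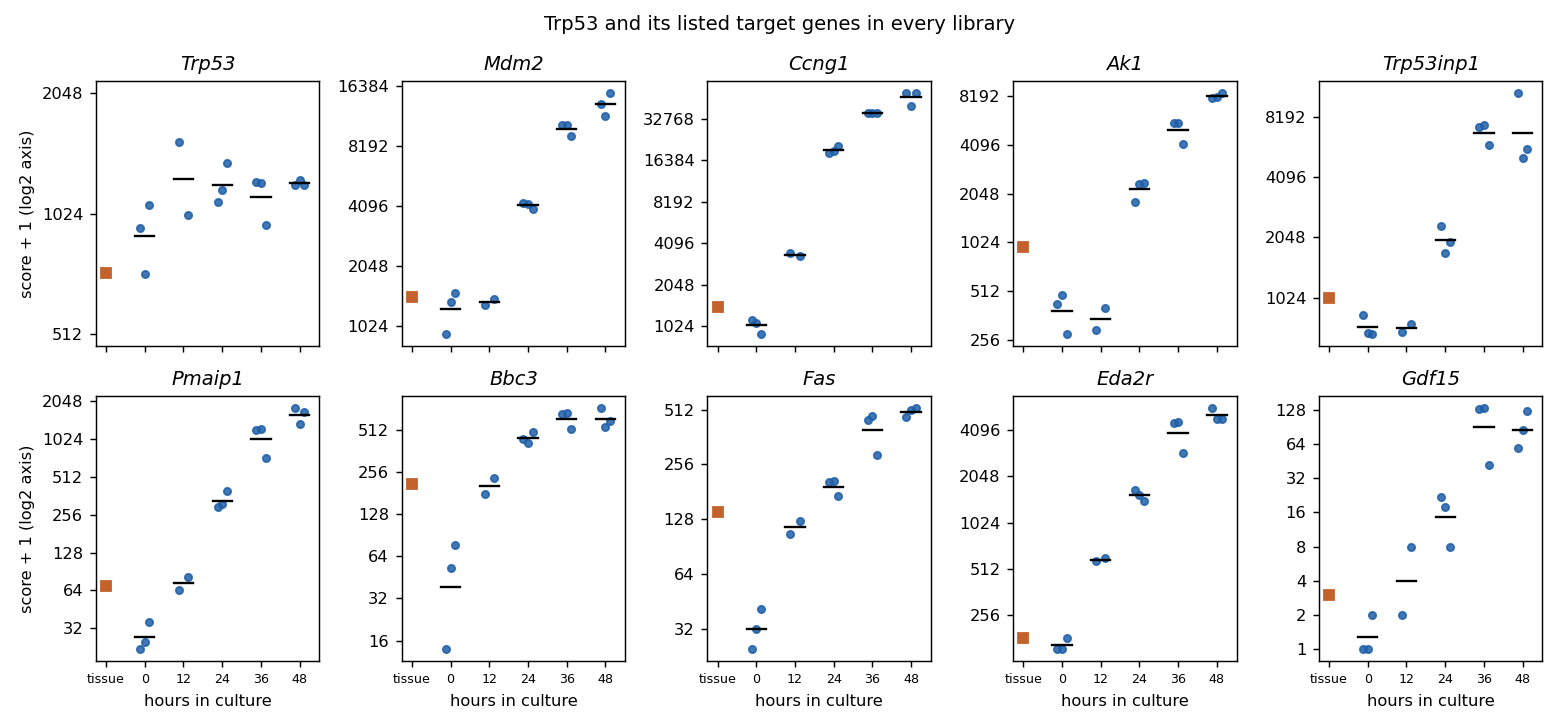
Score + 1 (log2 axis) of the 10 genes in the tissue library (square) and in each mDMC library (circles) by hours in culture, with bars at the mean of the log2 values of a time point. The axes of the panels differ in range. Trp53 stayed between 724 and 1544 in all mDMC libraries. In all 10 genes the 48 h libraries lay above all 0 h libraries, as in 37.3% of all transcripts.

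Ccng1 encodes cyclin G1, which recruits a phosphatase to Mdm2, and it reached the highest scores of the group. Its score was 1135, 1085 and 902 at 0 h, 3459 and 3290 at 12 h, 18558, 19258 and 20919 at 24 h, 36423 in each 36 h library, and 50500, 40680 and 50500 at 48 h. The tissue had 1409. No time point overlapped another. In the order of all transcripts within a library, Ccng1 stood between rank 4379 and 5292 at 0 h, between 94 and 114 at 24 h, and between 24 and 34 at 48 h. Because the score is set by rank, the identical values at 36 h reflect the same rank of 44 in each library. They may understate the spread between those libraries.

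Ccng1 also moved early. Its level was above that at 0 h by 1.70 ± 0.12 at 12 h on the log2 scale, 31.0% of its change to 48 h, and by 4.24 ± 0.11 at 24 h, 77.0% of that change. It rose by 2.53 ± 0.12 from 12 h to 24 h (limma, adjusted p = 3.69e-07) and by 0.90 ± 0.11 from 24 h to 36 h (adjusted p = 0.000429). The later step was smaller than the earlier one by 1.64 ± 0.19 on the log2 scale (limma, adjusted p = 0.0172, a test chosen after the values were seen). Ccng1 was the only transcript of 12079, or 0.00828%, with a later step called smaller, and with 36 h replicates 1 and 2 averaged the difference of 1.64 no longer passed (adjusted p = 0.0743).

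Ak1 and Trp53inp1 shared the delay of Mdm2. Ak1 encodes adenylate kinase 1, which balances the adenine nucleotides of the cell, and had scores of 427, 487 and 280 in fresh mDMCs, 297 and 406 after 12 h, 1824, 2361 and 2370 after 24 h, 5536, 5536 and 4136 after 36 h, and 7897, 8086 and 8514 after 48 h. Trp53inp1 encodes a stress protein that acts with kinases on p53 and in autophagy, and had 842, 680 and 678 in fresh mDMCs, 694 and 757 after 12 h, 2334, 1713 and 1944 after 24 h, 7240, 7422 and 5908 after 36 h, and 10725, 5120 and 5677 after 48 h. For both genes the 12 h values lay inside the 0 h range and all later values lay above it. At 48 h, Trp53inp1 was far higher in replicate 1 than in the other 2 libraries, and the 36 h and 48 h values overlapped.

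The log2 level of Ak1 at 12 h differed from that at 0 h by -0.16 ± 0.22 and that of Trp53inp1 by -0.01 ± 0.25. Ak1 then rose by 2.64 ± 0.22 from 12 h to 24 h (limma, adjusted p = 1.75e-05) and Trp53inp1 by 1.45 ± 0.25 (adjusted p = 0.00516). Without 12 h replicate 1 the step of Trp53inp1 did not pass (adjusted p = 0.067). From 24 h to 36 h Ak1 rose by 1.21 ± 0.19 (adjusted p = 0.00195) and Trp53inp1 by 1.78 ± 0.23 (limma, adjusted p = 0.00054). The tissue had 956 for Ak1 and 1018 for Trp53inp1, above all 0 h libraries in both.

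Pmaip1 and Bbc3 encode Noxa and Puma, the BH3-only proteins through which p53 opens the mitochondrial route to apoptosis. Pmaip1 had scores of 21, 24 and 35 in fresh mDMCs, 64 and 81 after 12 h, 293, 314 and 397 after 24 h, 1221, 1238 and 728 after 36 h, and 1815, 1343 and 1687 after 48 h. It was higher at each time point than at the one before with no overlap, and its log2 level at 48 h was 5.89 above that at 0 h. The step to 24 h was 2.19 ± 0.26 (limma, adjusted p = 0.000487) and the next, to 36 h, was 1.63 ± 0.24 (adjusted p = 0.00113).

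Bbc3 followed another course. Its score was 13, 52 and 76 in fresh mDMCs, 177 and 233 after 12 h, 438, 413 and 495 after 24 h, 665, 674 and 525 after 36 h, and 736, 535 and 594 after 48 h. The time points did not overlap up to 36 h, whereas the 36 h and 48 h libraries were mixed. The 0 h libraries of Bbc3 spread widely, with a low value in replicate 1. By 12 h its log2 level was 2.41 ± 0.50 above that at 0 h, 60.1% of the change to 48 h, and without 0 h replicate 1 it was 1.68 above, 51.2% of that change. The steps of 1.14 ± 0.50 to 24 h and 0.46 ± 0.45 from there to 36 h did not pass the test (limma, adjusted p = 0.181 and 0.495). With the uncompared time points left out both passed (0.0434 and 0.0331), and the first also passed without 0 h replicate 1 (adjusted p = 0.00651). Over 12 h to 48 h Bbc3 rose by 1.60 ± 0.50 (adjusted p = 0.0217), and this call was lost without 12 h replicate 1 (adjusted p = 0.135) and without 48 h replicate 1 (limma, adjusted p = 0.0612).

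The receptor genes Fas and Eda2r both rose. Fas, the receptor for Fas ligand, had scores of 24, 31 and 40 in fresh mDMCs, 105 and 125 after 12 h, 203, 206 and 170 after 24 h, 449, 473 and 289 after 36 h, and 466, 509 and 521 after 48 h. Eda2r, the receptor for the A2 form of ectodysplasin, had 153, 153 and 181 in fresh mDMCs, 570 and 604 after 12 h, 1677, 1549 and 1422 after 24 h, 4584, 4660 and 2899 after 36 h, and 5721, 4869 and 4869 after 48 h. Each time point lay above the one before it up to 36 h in both genes, and Eda2r at 48 h lay above 36 h as well. The log2 level of each gene at 12 h was 1.85 above that at 0 h, with an SE of 0.23 for Fas and 0.18 for Eda2r.

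From 12 h to 24 h Eda2r rose by 1.40 ± 0.18 (limma, adjusted p = 0.00069), and Fas differed by 0.74 ± 0.23 without passing (adjusted p = 0.0725). This step of Fas passed when 0 h replicate 1 (0.0491), 0 h replicate 3 (0.0449) or 36 h replicate 3 (0.0407) was left out of the fit. From 24 h to 36 h Eda2r rose by 1.36 ± 0.16 (limma, adjusted p = 0.000414) and Fas by 1.03 ± 0.21 (adjusted p = 0.00617). The ligand gene Eda moved the other way, from a mean score of 545.3 ± 25.3 at 0 h to 351.7 ± 17.5 at 48 h (SD, n = 3 each). Its log2 level fell by 0.63 ± 0.08 (limma, adjusted p = 1.59e-05) over 48 h, and the table row does not separate the A1 and A2 forms. Genes for Fas ligand and for the ectodysplasin receptor Edar had no row.

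Gdf15, a secreted cytokine of the TGF-beta family that is induced by many stresses, was the lowest of the 10 genes. It was listed at 0, 0 and 1 in fresh mDMCs, 1 and 7 after 12 h, 21, 17 and 7 after 24 h, 131, 133 and 41 after 36 h, and 59, 84 and 126 after 48 h, with 2 in the tissue. The 36 h and 48 h libraries lay above all others and overlapped each other. It passed the low-value filter through 6 of 14 libraries, those of 36 h and 48 h, and no fold is given against 0 h. Because those groups let it through the filter, it is left out of the counts of tested genes between 12 h, 24 h and the later times.

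**Figure D2:**
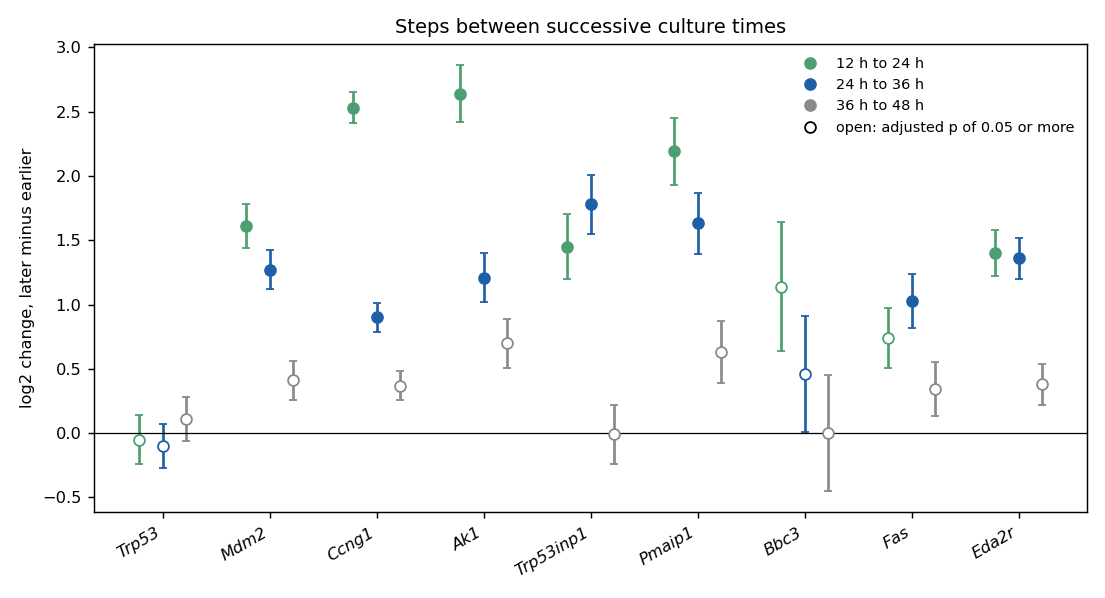
Log2 change of 9 genes, Gdf15 left out, over each successive 12 h step of culture (points, with SE bars; filled points passed an adjusted p of 0.05 in limma, open points did not). The steps of Mdm2, Ccng1, Ak1, Trp53inp1, Pmaip1 and Eda2r passed in both earlier steps, and no point passed in the step from 36 h to 48 h.

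Set side by side, the targets differed in how far they had moved by 12 h. Ccng1, Pmaip1, Bbc3, Fas and Eda2r lay above all 0 h libraries at 12 h, 5 of 10 genes beside 33.7% of all transcripts. Mdm2, Ak1 and Trp53inp1 did not, with 3.58%, -3.60% and -0.288% of their change to 48 h reached, against 24.3% for Pmaip1, 37.2% for Eda2r and 46.7% for Fas. Gdf15, at 1 and 7, overlapped the fresh libraries at 12 h. All 10 genes lay above every 0 h library at 24 h, where 35.8% of all transcripts did. The same was true of 9 genes at 36 h (38.2% of all transcripts) and of all 10 at 48 h (37.3%). The median log2 change of the 10 genes from 0 h was 1.55, 2.92, 3.85 and 4.20 after 12, 24, 36 and 48 h of culture, beside 0.02 to 0.03 over all transcripts tested. Without Gdf15 it was 1.43, 2.59, 3.69 and 4.0. The median at 12 h was 0.76 with a pseudocount of 16, 0.47 over the 7 genes with 1 ppm in all libraries and 1.02 without 12 h replicate 2. These values chose the genes and are descriptions.

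Within culture, and leaving out Gdf15, 6 of 9 genes rose and 0 fell from 12 h to 24 h, where 4.59% of all transcripts were called higher and 3.67% lower. In the next 12 h, 7 of 9 rose and 0 fell, beside 10% and 9.64% of all transcripts, and 7 also rose with 36 h replicates 1 and 2 averaged, beside 5.15%. Trp53 and Bbc3 were the genes not called at 24 h to 36 h. Across the whole span from 12 h to 48 h, 8 of 9 rose, all but Trp53, and 0 fell, beside 21.2% and 21% of all transcripts. The cultured libraries took part in the choice of these genes, so the counts within culture are not independent of it. The shares over all transcripts called higher moved on leaving out single libraries, between 1.12% and 5.55% for 12 h to 24 h, 5.17% and 11.4% for the next step, and 13% and 22.6% over the whole span. They were more than 1.5 times lower without 12 h replicate 1 or 24 h replicate 2 in the first step, without 24 h replicate 2 or 3 or 36 h replicate 1 or 2 in the next, and without 12 h replicate 1 over the whole span. The later libraries lay above all earlier ones in 8 genes at 12 h to 24 h (20.6% of all transcripts), in 8 at 24 h to 36 h (22.2%) and in 8 over the whole span (30.2%). The changes over that span ran from 1.60 for Bbc3 to 4.55 for Ak1 on the log2 scale, and Mdm2 rose by 3.29, Ccng1 by 3.80 and Pmaip1 by 4.46.

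From 36 h to 48 h, 0 of 10 genes passed in either direction in limma, where 0% of all transcripts were called higher and 0.0248% lower. Without 48 h replicate 1, 0.803% were called higher. At an unadjusted p below 0.05, 5 of 10 genes were higher, beside 6.4% of all transcripts. They were Ak1 (0.70 on the log2 scale, adjusted p = 0.167), Pmaip1 (0.63, adjusted p = 0.268), Mdm2 (0.41, adjusted p = 0.26), Eda2r (0.38, adjusted p = 0.32) and Ccng1 (0.37, adjusted p = 0.18). The same 5 genes lay above every 36 h library at 48 h, where 12.8% of all transcripts did. At 36 h, replicate 3 held the lowest value in 9 of the 10 genes, all but Ccng1. The share over all transcripts was not counted, so this is not read as a trait of these genes.

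In the tissue, 7 of the 10 genes lay above all 3 fresh libraries, beside 29.7% of all transcripts. Fas at 140 and Bbc3 at 209 exceeded the highest 0 h library by more than 2 times, which 1.33% of all transcripts did, and Pmaip1 had 68. Eda2r, Mdm2 and Trp53 were within the 0 h range. There is 1 tissue library, so no spread is known, and its endothelial (10393) and macrophage (1951) marker sums were above all fresh libraries, its dental mesenchyme sum (66624) was below all of them, and its epithelial (7683) and red cell (95181) sums were inside their range. Their part in the tissue values was not tested.

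Over the 14 mDMC libraries the log2 level of Mdm2 ran alongside those of the 8 other targets, with Pearson's r of 0.847 for Bbc3 to 0.980 for Pmaip1 and Ak1. The r of Trp53 with the other 9 genes was 0.308 to 0.549. Libraries of a time point share their culture time, and the genes were chosen by their changes from 0 h, so the coefficients follow in part from that choice and are given as a description. Among all transcripts, those nearest to Mdm2 were Pla2g12a (0.992), Ifitm3 (0.991) and Ano3 (0.990). Nearest to Ccng1 were Tbc1d2 (0.994), Polk (0.993) and Igsf9b (0.990), and Polk, a translesion DNA polymerase, is itself on the list of further p53 targets. The transcripts nearest to Trp53 were Mtmr9 (0.937), Creb3l1 (0.913) and Zbtb37 (0.900).

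A list of 40 further p53 targets, written from general knowledge, had 38 members in the table. It was chosen with earlier results of these data known, so its direction is not independent evidence. From 12 h to 48 h 27 of the 38 rose and 0 fell in limma, beside 21.2% and 21% of all transcripts, with a median log2 change of 1.31 beside -0.01. Against 0 h, 28 of 36 were higher and 4 lower at 48 h, beside 37.1% and 34%, leaving out Cdkn1a and Sco2, which reached 1 ppm in fewer than 2 of the fresh libraries and passed the filter through the cultured ones. Cdkn1a encodes the cell cycle inhibitor p21 and had scores of 16, 17 and 39 in fresh mDMCs, 484 and 289 after 12 h, 1231, 1284 and 1158 after 24 h, 2671, 2509 and 1988 after 36 h, and 2351, 2460 and 2369 after 48 h. It rose by 2.67 from 12 h to 48 h (limma, adjusted p = 3.4e-05). From 0 h to 48 h Ephx1, an epoxide hydrolase, rose by 6.08 ± 0.16 and the xylulose reductase gene Dcxr by 5.43 ± 0.19. Sco2, a copper chaperone of cytochrome c oxidase, had scores of 5, 3 and 2 in fresh mDMCs and 249, 141 and 242 after 48 h.

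Lower at 48 h than at 0 h in the test were Sesn1, a stress-induced regulator of mTORC1 (log2 change -1.68 ± 0.14), the antiproliferative gene Btg2 (-1.27 ± 0.37), and the DNA repair genes Ddb2 (-1.20 ± 0.19) and Xpc (-0.46 ± 0.14). The call of Xpc was lost without 0 h replicate 1 (limma, adjusted p = 0.0583). Btg2 rose by 1.52 from 12 h to 48 h (limma, adjusted p = 0.011, and 0.0703 without 12 h replicate 1), after scores of 4065, 10466 and 17403 at 0 h and 1253 and 1375 at 12 h. Stepwise, 19 of the 38 had risen by 24 h against 12 h, beside 4.59% of all transcripts, and 18 rose between 24 h and 36 h, beside 10%. The 18 became 11 with 36 h replicates 1 and 2 averaged, beside 5.15%. None of the 38 was called in limma between 36 h and 48 h, where 3 were higher and 1 was lower at an unadjusted p below 0.05, beside 6.4% and 6.99% of all transcripts.

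**Figure D3:**
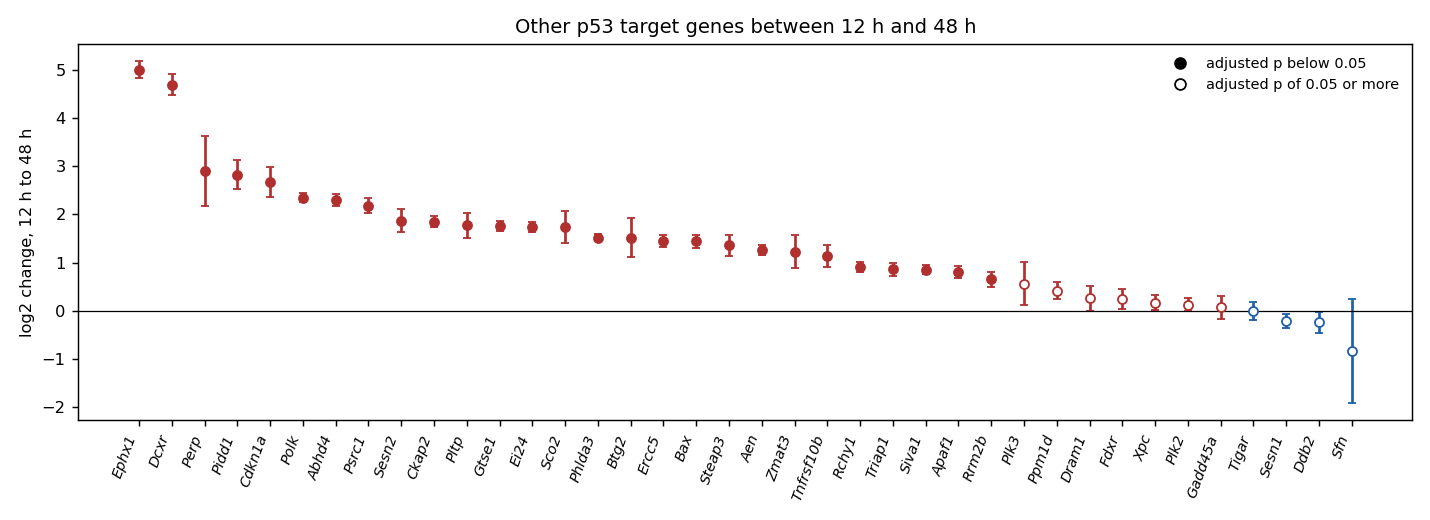
Log2 change from 12 h to 48 h of the 38 further p53 targets, in order of size (points, with SE bars; filled points passed an adjusted p of 0.05 in limma, open points did not). The 27 filled points all lie above 0, with Ephx1 and Dcxr at the top.

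Among the genes that act on p53, 15 had a row, 2 rose and 7 fell from 0 h to 48 h, beside 37.1% and 34% of all transcripts. This list and the lists below were also chosen with earlier results of these data known, so their p-values are not independent evidence. Mdm4, the partner of Mdm2 that masks the transactivation domain of p53, fell while Mdm2 rose. Its score was 3158, 2946 and 3306 in fresh mDMCs, 1815 and 1733 after 12 h, 1313, 1343 and 1408 after 24 h, 1075, 1107 and 1210 after 36 h, and 1230, 1171 and 1224 after 48 h. Every cultured library lay below every fresh one, and the log2 level of Mdm4 changed by -1.37 ± 0.07 to 48 h (limma, adjusted p = 3.93e-09). Also lower were Trp53bp1 (-1.45), the acetyltransferase gene Crebbp (-0.83) and Tpt1 (-0.71). The ubiquitin ligase gene Cop1 rose by 0.43 and the acetyltransferase gene Kat5 by 0.41. From 12 h to 48 h 1 of the 15 rose and 4 fell, beside 21.2% and 21% of all transcripts, with Mdm4 at -0.55 (limma, adjusted p = 0.000185). The call of Crebbp was lost without 0 h replicate 3 (adjusted p = 0.109), 48 h replicate 2 (0.0513) or 48 h replicate 3 (0.0579).

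The Bcl-2 family, on which Noxa and Puma act, had 11 genes with a row. From 0 h to 48 h 6 rose and 4 fell, beside 37.1% and 34% of all transcripts, and against 12 h 4 were higher and 1 was lower at 48 h, beside 21.2% and 21%. Bax, the pore-forming effector and a p53 target, rose from a mean score of 839.0 ± 108.1 to 5674 ± 551.9 (SD, n = 3 each), or by 2.76 ± 0.12 on the log2 scale (limma, adjusted p = 9.45e-10). Bid rose by 2.09 and the effector Bak1 by 1.45. The survival gene Bcl2l1 rose as well, by 1.58 ± 0.18, from 649.0 to 2000 (adjusted p = 5.33e-06). Mcl1, the survival protein that Noxa binds, changed by -0.51 ± 0.15 to 48 h (limma, adjusted p = 0.00998) and by 0.13 from 12 h to 48 h (adjusted p = 0.574). Bcl2 changed by -0.98 to 48 h.

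Other BH3-only genes of the list differed in direction, with Bid higher, Bad not called (0.25, adjusted p = 0.179 in limma), and Bmf and Bcl2l11 lower. Bmf had scores of 2905, 2531 and 2541 in fresh mDMCs, 795 and 893 after 12 h, and 272, 121 and 114 after 48 h, a change of -4.08 ± 0.27 (limma, adjusted p = 3.49e-08). Bcl2l11, which encodes Bim, changed by -1.53 ± 0.23 (adjusted p = 4.91e-05).

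**Figure D4:**
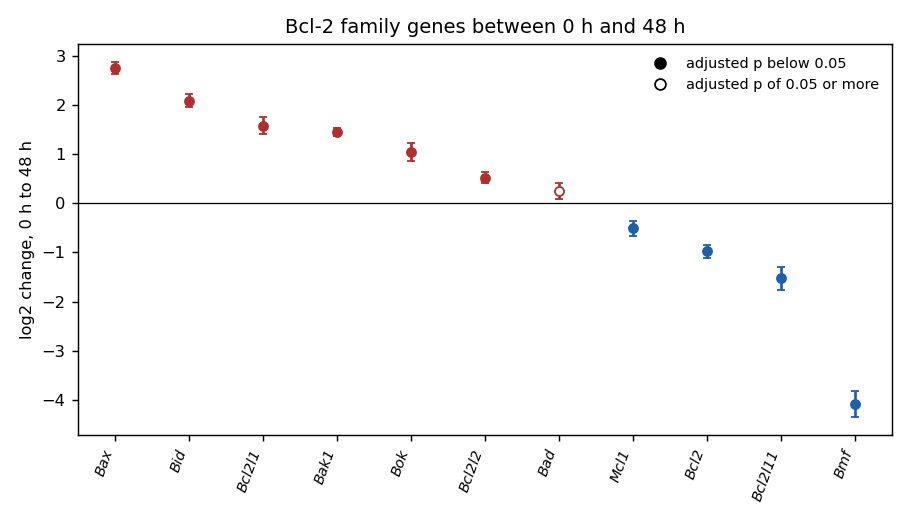
Log2 change from 0 h to 48 h of the 11 genes of the Bcl-2 family with a row, in order of size (points, with SE bars; filled points passed an adjusted p of 0.05 in limma, the open point did not). Bax lies at the top with 2.76 and Bmf at the bottom with -4.08.

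On the list of death receptor and caspase genes, 17 had a row. Against 0 h 5 were higher and 8 lower at 48 h, beside 37.1% and 34% of all transcripts, and against 12 h 1 was higher and 2 were lower, beside 21.2% and 21%. The adaptor gene Tradd rose by 1.5, Cflar, which encodes the inhibitor c-FLIP, by 0.88, Cycs by 0.59 and the Fas adaptor gene Fadd by 0.49. The call of Fadd was lost without 0 h replicate 3 (limma, adjusted p = 0.099), 48 h replicate 1 (0.0586) or 48 h replicate 2 (0.0519), and with the uncompared time points left out (0.0733). Edaradd, the adaptor gene of the receptor Edar and not of Eda2r, changed by -1.34, Casp9 by -1.04, Xiap by -0.91 and Casp6 by -0.86. The median log2 change of these genes to 48 h was -0.14, beside 0.03 over all transcripts. Tnfrsf10b, Pidd1 and Apaf1, which belong to these routes, are counted with the further p53 targets and not here. All were called higher at 48 h than at 0 h in limma, so the balance of this list depends on where they are counted.

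Genes of the integrated stress response, which runs through Atf4, were taken as a separate list because Gdf15 is known to be induced by p53 and by Atf4. It had 11 genes with a row, of which Trib3 and Chac1 reached 1 ppm in fewer than 2 fresh libraries and passed the filter through cultured ones. Of the other 9, 6 rose and 2 fell from 0 h to 48 h, beside 37.1% and 34% of all transcripts. Against 12 h, 4 of 10 genes other than Trib3 were higher and 2 lower at 48 h, beside 21.2% and 21%. Between fresh and 48 h mDMCs, Ddit3, which encodes Chop, rose by 2.77 ± 0.28 (limma, adjusted p = 1.68e-06) and Sesn2, also on the list of further p53 targets, by 2.64 ± 0.22. Trib3 had scores of 3, 3 and 4 in fresh mDMCs and 71, 85 and 233 after 48 h, and Chac1 had 3, 4 and 56 and then 91, 141 and 262. From 0 h to 48 h Atf3 changed by -2.09 ± 0.52 (limma, adjusted p = 0.00284), by -2.73 without 0 h replicate 1 and by -1.56 without 0 h replicate 3. Its scores in fresh mDMCs were 641, 1803 and 3264. Eif2ak3 changed by -0.42.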

How the data were processed

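RNA-seq of 15 libraries was analysed, 14 of mDMCs and 1 of tissue. Reads were adaptor-trimmed by the authors, mapped with bowtie to Ensembl transcripts (mm10) and quantified with RSEM. They deposited 1 table of scores, whole numbers on a normalized scale that share one distribution over the libraries; the step that made it is not given in the sources used here. With no depth known, precision comes from replicates alone, and changes in total RNA cannot be seen.

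Transcripts were matched to genes with GENCODE M21 (GRCm38), 11973 of 12089. No exon of another gene overlapped the 10 genes' transcripts. A transcript was kept if its score reached 1 ppm of the summed scores in 2 or more of the 14 libraries. The 12079 kept were fitted as log2(score + 1) with limma 3.58.1 in R 4.3.3, each time point having its own mean, with a trended eBayes step and Benjamini-Hochberg adjustment over all of them. A call is an adjusted p below 0.05. The tissue was left out of the fit. Values are scores per library, means ± SD, or log2 changes ± SE. The fit was tested on simulated data.

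The members and lists were chosen with earlier results of these data known. Named genes are the 10 genes, up to 4 called genes of each other list with the largest change to 48 h in each direction, Cdkn1a, Mdm4, Bax, Bcl2l1, Mcl1 and Eda, and the 3 transcripts most correlated with Trp53, Mdm2 and Ccng1. Polk, Btg2 at 12 h, Tnfrsf10b, Pidd1, Apaf1 and Sesn2 as a list member in common were remarked on after their values were seen. The alternatives were pseudocounts of 0.1 and 16, no filter, 1 ppm in all 14 libraries, centred libraries, a replicate block, a fit without the uncompared time points, eBayes without trend, an unadjusted p below 0.05 with a fold above 2 (the authors' rule for their DESeq2 calls), each library left out in turn and, chosen after seeing the data, 36 h replicates 1 and 2 averaged.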

Additional observations from a re-analysis of the deposited data

How the results depend on the processing

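The direction and side of the threshold of single genes between culture times held, for the 9 genes other than Gdf15, in 796 of 820 alternatives over 36 results, with 3 calls lost, 6 gained and 15 changes of sign. The changes of sign were all in steps that were not called. Leaving out single libraries moved Trp53 between -0.35 and 0.25 (12 h to 24 h), -0.16 and 0.02 (the step to 36 h), -0.01 and 0.17 (the step to 48 h), and -0.34 and 0.27 (12 h to 48 h). In the step to 48 h it moved Bbc3 between -0.13 and 0.10, Gdf15 between -0.62 and 0.22 and Trp53inp1 between -0.34 and 0.19, and averaging 36 h replicates 1 and 2 gave 0.06, 0.21 and 0.04. That averaging kept 1100 of the 2375 calls over all transcripts from 24 h to 36 h, with no other call. From 12 h to 24 h, leaving out single libraries gave 184 to 1231 calls in place of 997, and 0 to 199 in place of 3 from 36 h to 48 h. Of the 938 alternatives for 41 results of genes of the other lists, 929 kept direction and side and 9 lost the call, in Xpc, Crebbp, Fadd and Btg2.

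The medians of the 10 genes against 0 h were 0.76, 2.29, 3.34 and 3.46 with a pseudocount of 16 at 12, 24, 36 and 48 h. With 1 ppm required in all libraries, 7 of the 10 genes were left, and the medians were 0.47, 2.48 and 3.96 at 12, 24 and 48 h. Leaving out single libraries gave 1.02 to 1.63, 2.68 to 3.05, 3.61 to 4.16 and 4.12 to 4.39.

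Under the rule of unadjusted p and fold, the counts to 48 h were, from 0 h and from 12 h, 0 higher and 2 lower and then 1 lower for the p53 regulators, 2 lower and then 2 higher for the Bcl-2 family, 1 higher and 2 lower and then 0 and 0 for the death receptor genes, and 1 lower and then 0 lower for the integrated stress response. From 12 h to 48 h the fit of only the compared time points gave 0 higher and 1 lower death receptor genes, and eBayes without trend and the averaging each gave 1 lower stress response gene. Leaving out single libraries gave, from 12 h to 48 h, 1 to 2 higher and 2 to 6 lower p53 regulators, 1 to 2 lower Bcl-2 genes, 0 to 2 higher death receptor genes and 1 to 3 lower stress response genes. The causes were not tested.

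With the replicate number as a block, 2 Bcl-2 genes were lower from 12 h to 48 h in place of 1. Libraries of the same number correlated in their deviations by -0.25 to 0.32 over 26 pairs, of which 11 were over 0.1, and 6 of 52 pairs with different numbers were as well. Pairs over 0.1 were thus more frequent among libraries of the same number. Whether the number pairs the libraries is not known, and the main fit did not pair them. Low values depended on the pseudocount, and the log2 difference between 0 h and 48 h over the alternatives other than leaving out libraries was 3.52 to 5.99 for Sco2, 2.75 to 5.04 for Trib3 and 2.47 to 4.07 for Chac1, with 3.16 to 5.08 for Chac1 on leaving out single libraries.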
